A study of Sus scrofa with 6 samples.

Results

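The miR-15, miR-16, miR-195 and miR-497 probes of a pig miRNA microarray were followed in the left atrium (LA) of paced and sham pigs. The members were chosen by name, as the probes called miR-15a, miR-15b, miR-16, miR-195 or miR-497 with or without an arm suffix. The array held 5 such probes among its 322 pig miRNA probes, 1 for each name and none with an arm suffix. Total RNA came from the LA of 3 paced pigs, labelled PAF for paroxysmal atrial fibrillation (AF), and of 3 sham-control pigs, with 1 Cy3-labelled array for each animal. All were large white pigs, which the study's methods describe as 3 months old and the sample labels as neonatal piglets. In the paced group a catheter in the right atrium delivered 3 pacing bursts (800 bpm) after esmolol, a beta blocker, and the LA was taken 20 to 24 hours later. The sham animals were operated on but not paced, and whether they received esmolol is not given in the sources used here. Any effect of pacing therefore cannot be told apart from that of esmolol if the latter went to the paced group only. The model is one of brief self-terminating episodes in healthy atria, and the tissue held all cell types of the wall. In such bulk tissue, fewer cells of a type and less of a miRNA in each cell cannot be told apart.

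A miRNA recognizes its targets chiefly through its seed, the bases 2 to 8 from the 5′ end, so miRNAs with a common seed share many predicted targets. The miR-15 family is known for repressing regulators of the cell cycle, among them cyclins and checkpoint kinase 1, and the apoptosis inhibitor BCL2. In the heart it is best known from mouse work, where miR-195 takes part in the withdrawal of cardiomyocytes from the cell cycle after birth. miR-16 is also abundant in red blood cells, so that the blood held in a tissue adds to its signal.

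The mature sequences that the array files give as targets of the 5 probes are shown because the seed defines the family and the remaining bases set the probes apart. Capitals mark bases 2 to 8.
miR-15a: uAGCAGCAcauaaugguuugu
miR-15b: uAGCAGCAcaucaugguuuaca
miR-16: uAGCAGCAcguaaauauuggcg
miR-195: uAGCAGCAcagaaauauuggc
miR-497: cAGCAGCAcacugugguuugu
All 5 carry the seed AGCAGCA. Of the 322 probes on the array 6 (1.86%) have it at these bases, the sixth being miR-424-5p. Read without gaps from the 5′ end, miR-16 and miR-195 are identical at 19 of 21 bases and differ by G10A and U11G, with positions counted from 1 at the 5′ end and the base of miR-16 first. miR-15a and miR-15b are identical at 18 of 21 bases (A12C, G20A and U21C). The least alike are miR-16 and miR-497, identical at 11 of 21 bases. Probes for sequences this close can share signal, and how far they did was not tested.

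The genes lie in pairs. In the RefSeq gene table of Sscrofa11.1, which was used for names and neighbours only, all 5 members have a gene and miR-16 has 2. MIR15A lies next to the gene that the table calls MIR16-2, with 64 bases between them. MIR15B lies 59 bases from MIR16-1, and both are inside SMC4, the gene of a condensin subunit. MIR195 and MIR497 are 210 bases apart, inside a long noncoding RNA gene (LOC102161115). The mature miR-16 of both loci is the same sequence to the array, so its probe reads their sum.

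For each of its 9 repeat spots, a probe was measured as the median intensity of the spot's pixels. Values below are log2 intensities after background correction and quantile normalization. Because probes differ in their affinity, a higher value of one probe does not mean a higher level than that of another, and only differences between animals were read. Background was read from the 786 empty spots of each array. Their median lay between 64.7 and 214.1 scanner units in the sham and between 242.5 and 399 units in the paced animals, so every paced array was above every sham array. A probe counted as well above background where its median over the repeat spots lay over the limit set by the empty spots, their median plus 3 SD. Paced replicate 1 had the highest background and the fewest probes well above it (104, against up to 175 on the other arrays). Which animal was processed when is not given in the sources used here, so a batch could not be tested.

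The family was well above background on most arrays, and nearest to it in paced replicate 1. In 29 of the 30 combinations of member and array the probe was well above background. The exception was miR-497 in paced replicate 1, where the median of 536 units lay just under the limit of 550 units. With the limit taken from the 15 empty spots closest to each spot, all 30 combinations passed. In sham replicate 2, which had the lowest background, miR-16 read 7754 units, 120 times the empty-spot median. In paced replicate 1 it read 5942 units, 14.9 times that array's empty-spot median. The other members were nearer to background. In sham replicate 2 miR-15a, miR-15b, miR-195 and miR-497 read 25.8, 24.4, 14.8 and 8.39 times the empty-spot median. In paced replicate 1 they read 3.22, 3.27, 1.99 and 1.35 times that array's median.

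**Figure D1:**
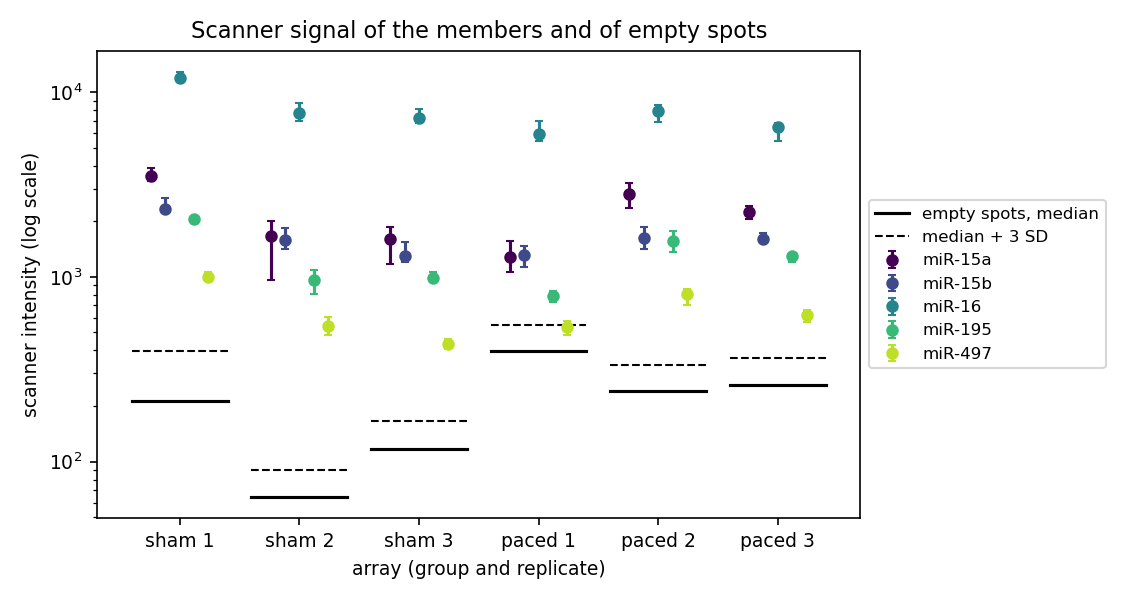
Scanner intensity of the 5 members on each array, on a log scale. Points are the median of the 9 repeat spots, bars run from the lowest to the highest spot, and lines give the median of the empty spots and that median plus 3 SD. Only miR-497 in paced replicate 1, at 536 units, has its point under the dashed line.

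The question put to these data was whether the family's level in the LA differed after brief pacing-induced AF. No member passed the test. In limma, fitted over 322 probes with Benjamini-Hochberg adjustment, 0 of 5 members reached an adjusted p of 0.05, and 0 of 322 probes did (0%). At an unadjusted p of 0.05 the count was 0 of 5 members, against 34 of all probes (10.6%), of which 11 were higher (3.42%) and 23 lower (7.14%) in paced animals. On the same log2 values, the methods' t-test gave an unadjusted p under 0.05 to 0 of 5 members and to 39 of all probes (12.1%), none of which passed after adjustment. Paced and sham values overlapped for all 5 members, whereas they did not overlap for 17.4% of all probes and for 4.81% of the 104 probes that passed the background limit on all 6 arrays. All 104 probes that passed in paced replicate 1 passed on the other arrays too, so that array alone decides which probes these are. The median difference of the 5 members was -0.09 on the log2 scale, and that of all probes was 0.00 (-0.03 over the 104). The difference was negative in 4 members and positive in miR-15a, and it was negative in 157 of all 322 probes and in 63 of the 104. Each array was a different animal, and the p values rest on the spread between 3 animals in each group.

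**Figure D2:**
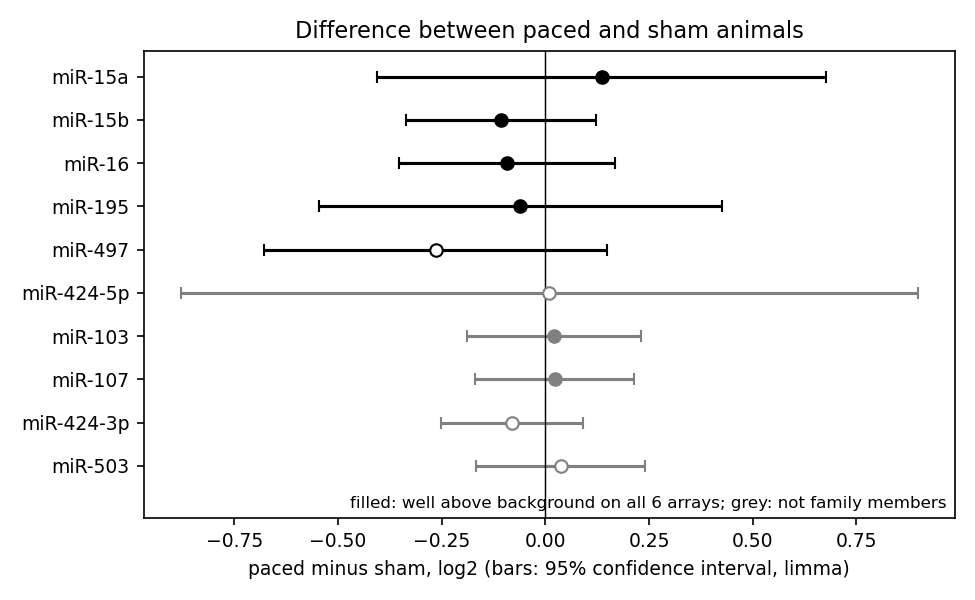
Paced minus sham difference in log2 intensity, with 95% confidence intervals from limma, for the 5 members in black and 5 related probes in grey. Filled points were well above background on all 6 arrays. Every interval includes 0, and the widest is that of miR-424-5p, from -0.88 to 0.90.

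miR-15a, the partner of miR-16 in its cluster, had log2 values of 11.07, 10.80 and 10.73 in the sham group, given here and below in the order of the replicate numbers. The paced group read 10.48, 11.35 and 11.17. The paced animals thus lay on both sides of the sham animals, with replicate 1 below every sham animal and replicates 2 and 3 above every sham animal. The group means were 10.86 ± 0.18 and 11.00 ± 0.46 (SD, n = 3 per group). Paced minus sham, 0.14 (SE 0.23; limma, adjusted p = 0.857), was smaller than the spread between paced animals. Its 95% confidence interval, from -0.40 to 0.68, spans a fold of 0.755 to 1.60.

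miR-16 differed little between animals. Its log2 values were 13.08, 12.98 and 12.80 in the sham and 13.03, 12.81 and 12.75 in the paced replicates. Paced replicates 1 and 2 lay within the sham range and replicate 3 just under it. From 12.95 ± 0.14 in sham the mean went to 12.86 ± 0.15 in paced animals (SD, n = 3 per group), which is -0.09 on the log2 scale (SE 0.11; limma, adjusted p = 0.792). The interval of -0.35 to 0.17 corresponds to a fold between 0.784 and 1.12. For this probe a change of 2-fold lies outside the interval in both directions.

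Blood was looked at beside miR-16. Of the 3 erythroid probes fixed as markers, miR-451 was well above background on all arrays, miR-486 on 5 and miR-144 on none. The summed level of the list, in units of normalized intensity, ranged from 12198 to 17089 in sham and from 8241 to 12293 in paced animals. miR-451, a miRNA of red cells, had means of 13.70 ± 0.28 and 13.33 ± 0.34 in the sham and the paced group (SD, n = 3 per group), and -0.37 as their difference (SE 0.20; limma, adjusted p = 0.511). For miR-486 the means were 8.78 ± 0.27 and 8.08 ± 0.18, and at -0.70 (SE 0.16; limma, adjusted p = 0.134) every paced animal was below every sham animal. The part of blood in the value of miR-16 was not tested.

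miR-15b, read from the SMC4 locus, had log2 values of 10.62, 10.78 and 10.46 in the sham replicates. In the paced replicates they were 10.51, 10.45 and 10.57, which lie within 0.12 of each other, and replicate 2 was just under the sham range. The means, 10.62 ± 0.16 and 10.51 ± 0.06 (SD, n = 3 per group), were apart by -0.11 (SE 0.10; limma, adjusted p = 0.739), with an interval from -0.34 to 0.12 or a fold of 0.792 to 1.09. miR-15b had the narrowest interval of the 5 members.

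miR-195 had a pattern like that of miR-15a. Its log2 values were 10.31, 10.11 and 10.07 in the sham replicates and 9.62, 10.35 and 10.34 in the paced replicates. Paced replicate 1 was the lowest of the 6 animals, and the other paced animals were the highest, though only just over the brightest sham animal. With means of 10.16 ± 0.13 and 10.10 ± 0.42 (SD, n = 3 per group), paced minus sham came to -0.06 (SE 0.20; limma, adjusted p = 0.922). The interval ran from -0.54 to 0.42, a fold of 0.685 to 1.34.

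In the main analysis miR-497, the partner of miR-195, had the largest mean difference of the 5 members. This did not hold with scaling to the median detected probe, without normalization between arrays, without sham replicate 1 or without paced replicate 1. The log2 values of miR-497 were 9.34, 9.38 and 8.83 in sham and 8.70, 9.09 and 8.97 in paced animals. Paced replicate 1 was again the lowest, there just under the limit for a probe well above background, but sham replicate 3 was lower than the other paced animals. Means of 9.18 ± 0.31 and 8.92 ± 0.20 (SD, n = 3 per group) were -0.26 apart (SE 0.17; limma, adjusted p = 0.625), a fold of 0.833 (interval 0.625 to 1.11). This difference was within the spread between sham animals.

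**Figure D3:**
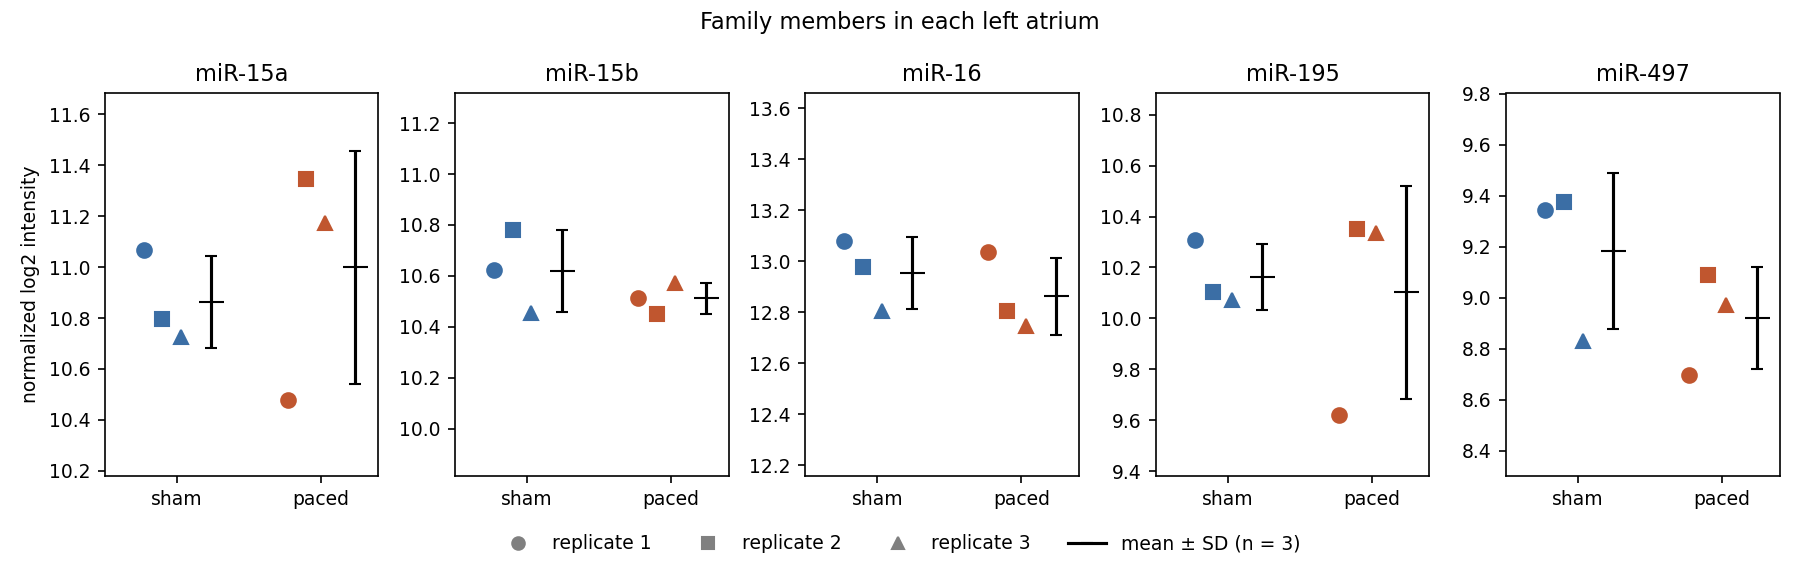
Normalized log2 intensity of each member in each animal, sham in blue and paced in orange, with marker shapes for the replicate numbers and bars for mean ± SD (n = 3). Each panel spans 1.5 log2 units. Paced replicate 1 is the lowest animal for miR-15a (10.48), miR-195 (9.62) and miR-497 (8.70) but not for miR-15b or miR-16.

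The 5 members differed in how far animals of the same group were apart. The within-group SD, pooled over both groups, was 0.35 for miR-15a, 0.31 for miR-195, 0.26 for miR-497, 0.15 for miR-16 and 0.12 for miR-15b. To place these values, the 125 probes well above background on the 5 arrays other than paced replicate 1 were used, since a limit on that array would leave out probes for being low there. Their median SD was 0.17, and miR-15a, miR-195 and miR-497 stood at percentiles 92.4, 89.2 and 78.0. miR-16 and miR-15b stood at percentiles 40.4 and 22.0. The spread of miR-15a and miR-195 came mainly from the paced group, where the SD was 0.46 and 0.42, against 0.18 and 0.13 in sham animals. For miR-497 the SD was higher in sham (0.31) than in paced animals (0.20). Repeat spots of one probe on one array had a median SD of 0.18 for miR-15a and 0.08 for miR-195, taken before quantile normalization. The SD between animals, taken after it, was 1.93 and 3.93 times that between single spots. That ratio was 2.56 for miR-497, 1.39 for miR-16 and 1.04 for miR-15b. Each animal's value is a mean of 9 spots and varies less than a single spot does.

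In the paced group replicate 1 stood apart for miR-15a and miR-195. Its miR-15a value was 0.78 below the mean of the other paced animals, and that of miR-195 was 0.72 below. miR-497 was 0.33 below. In the same animal miR-15b was level with the other paced animals (0.00) and miR-16 was 0.26 above them. Over the same 125 probes, 21 of which were not well above background in paced replicate 1, the median of this deviation was 0.09, with a 5th percentile of -0.85 and a 95th percentile of 0.54. The deviations of miR-15a and miR-195 were thus inside this range, with 8 and 9 probes at or below them, themselves included. This comparison and its set of probes were chosen after the values were seen. The array of paced replicate 1 also had the highest background, and the part of the background in these values was not tested.

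**Figure D4:**
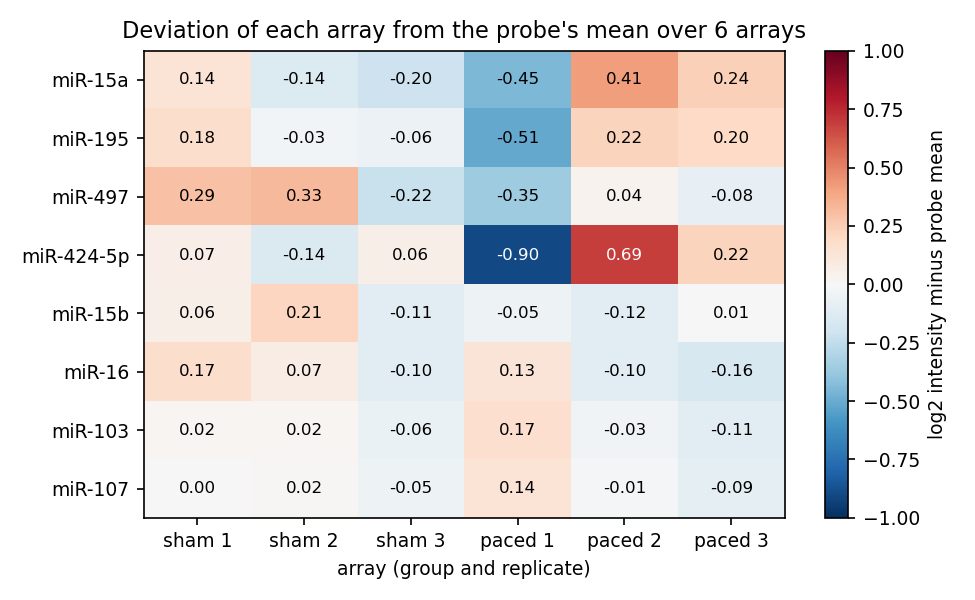
Deviation of each array from the mean of its probe over the 6 arrays, in log2 units, for the members and for 3 probes with the same or a shifted seed. The order of the rows was chosen by hand. In paced replicate 1 the values are -0.45 for miR-15a, -0.51 for miR-195 and -0.90 for miR-424-5p, against 0.13 for miR-16.

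Without paced replicate 1, the arrays that remained were normalized again. miR-15a then read 11.15, 10.88 and 10.81 in the sham and 11.41 and 11.25 in the paced animals, with no overlap. The difference was 0.39 (SE 0.12, limma, unadjusted p = 0.0153, adjusted p = 0.109). miR-195 changed sign, from -0.06 to 0.18 (SE 0.09, adjusted p = 0.296), also without overlap. Among all probes the values did not overlap for 39.1%, 20.8% had an unadjusted p under 0.05, and 2.80% passed after adjustment, none of them a member. The values of miR-15b, miR-16 and miR-497 were then -0.11, -0.19 and -0.16. Leaving out sham replicate 3 moved miR-497 to -0.45 (adjusted p = 0.423), and 1 member then had an unadjusted p under 0.05 (8.39% of all probes did). Leaving out paced replicate 2 turned miR-15a to -0.04.

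The ratio of neighbouring members within an array shows whether the readings of their probes moved unequally, and a scaling of the array as a whole leaves it as it is. Since the miR-16 probe reads both miR-16 loci, a ratio to it does not compare the partners of 1 locus alone. The 3 ratios are given as the log2 value of one partner minus that of the other, and their size in a single animal depends on the affinity of both probes. For miR-15a against miR-16 the sham animals lay close together, at -2.01, -2.18 and -2.08. The paced animals lay at -2.56, -1.46 and -1.57, so that none of them was within the sham range and they were on both sides of it. The group difference was 0.23 (SE 0.35, exact permutation test, two-sided, p = 0.5, adjusted over the 3 ratios 0.75). Leaving out 1 paced animal gave 0.58 without replicate 1, 0.029 without replicate 2 and 0.095 without replicate 3.

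For miR-195 against miR-497 the ratio was 0.97, 0.73 and 1.24 in sham and 0.92, 1.26 and 1.37 in paced animals, a difference of 0.20 (SE 0.20, exact permutation p = 0.4, adjusted 0.75). It was 0.01 without normalization between arrays. Scaling to the median detected probe gives the same value by construction, since a ratio within an array does not change with it. Cyclic loess, which also does without quantile normalization, gave 0.11. With 1 animal left out the difference was between 0.08 (without sham replicate 2) and 0.34 (without sham replicate 3 or paced replicate 1). miR-15b against miR-16 gave -2.46, -2.20 and -2.35 in sham and -2.52, -2.36 and -2.17 in paced animals. Its difference was -0.01 (SE 0.12, exact permutation p = 0.9), with a direction that changed with the normalization. With 3 animals against 3 the exact test cannot go below p = 0.1, so these ratios could not have passed. The ratio of miR-15a to miR-15b, whose sequences are alike but whose genes are not neighbours, was examined after the values were seen and is given without a test. It was 0.44, 0.02 and 0.27 in sham and -0.03, 0.89 and 0.60 in paced animals, with the lowest and both highest values in the paced group.

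The authors' processed values are intensities on a linear scale, 1 per probe and array. There too, paced replicate 1 was the lowest of the 6 animals for miR-15a (1359), miR-195 (692) and miR-497 (281). The other paced animals were not both above the sham animals on this scale. Sham replicate 1 read 2240 for miR-15a, between paced replicates 2 (2279) and 3 (2125). For miR-195 it was the highest, at 1206 against 1153 and 1076. Group means for miR-16 were 7897 ± 789 (sham) and 7112 ± 449 (paced; SD, n = 3 per group). For miR-15a they were 1805 ± 381 and 1921 ± 492, and for miR-15b 1452 ± 187 and 1366 ± 95.7. miR-195 had means of 1048 ± 138 and 973 ± 247. For miR-497 they were 487 ± 124.1 and 384 ± 101. On these values the methods' t-test gave an unadjusted p under 0.05 to 0 of 5 members and to 29 of all probes (9.01%), with 0 of 322 after adjustment.

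The related probes fixed as a list are miR-424-5p and miR-424-3p, miR-503, miR-103 and miR-107. The sequences of 4 of them are shown to set their seeds against that of the family. Capitals mark bases 2 to 8 in the first pair, where miR-424-5p has the family's seed and miR-503 has AGCAGCG. In the second pair they mark bases 1 to 7, where AGCAGCA lies.
miR-424-5p: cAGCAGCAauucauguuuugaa
miR-503: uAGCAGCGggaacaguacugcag
miR-103: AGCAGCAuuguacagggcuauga
miR-107: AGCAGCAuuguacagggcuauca
miR-424 and miR-503 come from an X-linked cluster known for its part in muscle differentiation, and miR-103 and miR-107 from introns of pantothenate kinase genes. Of these 5 related probes 0 reached an unadjusted p of 0.05 (10.6% of all probes did). miR-103 and miR-107 were well above background on all arrays, miR-424-5p on 5, miR-424-3p on 2 and miR-503 on none.

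miR-424-5p, with the full family seed, had log2 values of 9.37, 9.16 and 9.36 in sham and 8.40, 9.99 and 9.52 in paced animals. Its range in the paced group was 1.59, against 0.21 in the sham group, and its probe was not well above background in paced replicate 1. The order of the paced animals was that of miR-15a, with replicate 1 below and replicates 2 and 3 above every sham animal. The means, 9.29 ± 0.12 and 9.30 ± 0.82 (SD, n = 3 per group), were 0.01 apart (SE 0.37; limma, adjusted p = 0.997). The sign depended on the background correction and the normalization, and without paced replicate 1 the value was 0.46 (limma, adjusted p = 0.130). miR-103 and miR-107, which differ at 1 of 23 bases (G22C), ran together, with differences of 0.02 (SE 0.09) and 0.02 (SE 0.08) that turned to -0.14 and -0.13 under scaling to the median detected probe. In both of them paced replicate 1 was the highest of the 6 animals.

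Which probes had the pattern most like that of each member was measured as the root mean square difference of the log2 values over the 6 arrays, each probe centred on its own mean, among the 104 probes. It is a description of 6 arrays with no test, and it favours steady probes for steady members. Probes not well above background in paced replicate 1 could not be named. miR-15a was nearest to miR-186 (0.11), miR-195 (0.11) and miR-27a (0.12), where the median over the other detected probes was 0.35. miR-195 was nearest to miR-15a (0.11), miR-30a-5p (0.14) and miR-499-5p (0.16). For miR-16 the nearest were miR-28-3p (0.03), miR-378 (0.04) and miR-181a (0.06). miR-15b was nearest to miR-139-5p (0.06), miR-342 (0.06) and miR-145-5p (0.08).

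Among the members, miR-15a and miR-195 were the closest of the 10 pairs, although their sequences are identical at only 15 of 21 bases and their genes are not neighbours. miR-15a and miR-16, cluster partners, were the farthest apart (0.37). miR-16 and miR-195, the most alike in sequence, were apart by 0.33 and miR-15a and miR-15b by 0.32. The value for miR-103 and miR-107 was 0.02. miR-195 and miR-497 were apart by 0.22 and miR-15b and miR-16 by 0.13.

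The processing set the size of the differences more than their calls. Over 19 alternatives with a log2 difference, miR-15b, miR-16 and miR-497 stayed below 0 in each. miR-15b ranged from -0.33 to -0.03, miR-16 from -0.43 to -0.03 and miR-497 from -0.45 to -0.14. The smallest differences came with 1 sham animal left out, -0.027 for miR-15b without sham replicate 2 and -0.027 for miR-16 without sham replicate 1, against -0.11 and -0.09 with all animals. miR-15a ranged from -0.16 to 0.39 and miR-195 from -0.30 to 0.18, each with 2 alternatives of the other sign. With each array scaled to its median detected probe, the median of all probes rose to 0.44 while miR-15a was at 0.00, miR-15b at -0.16, miR-16 at -0.26, miR-195 at -0.14 and miR-497 at -0.14. Without normalization between arrays the median of all probes was 0.27 and the members lay between -0.43 and -0.16. Over the 104 probes that passed on all arrays, the median difference was -0.08 with the scaling and -0.25 without normalization. The scaling centres each array on the median of these same probes, so their small shift under it is set by construction. Without normalization their shift had the sign opposite to that of the median of all probes. With the scaling 0 of 5 members and 53.1% of all probes passed after adjustment, and without normalization 0 of 5 members and 0 of 322 probes.

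**Figure D5:**
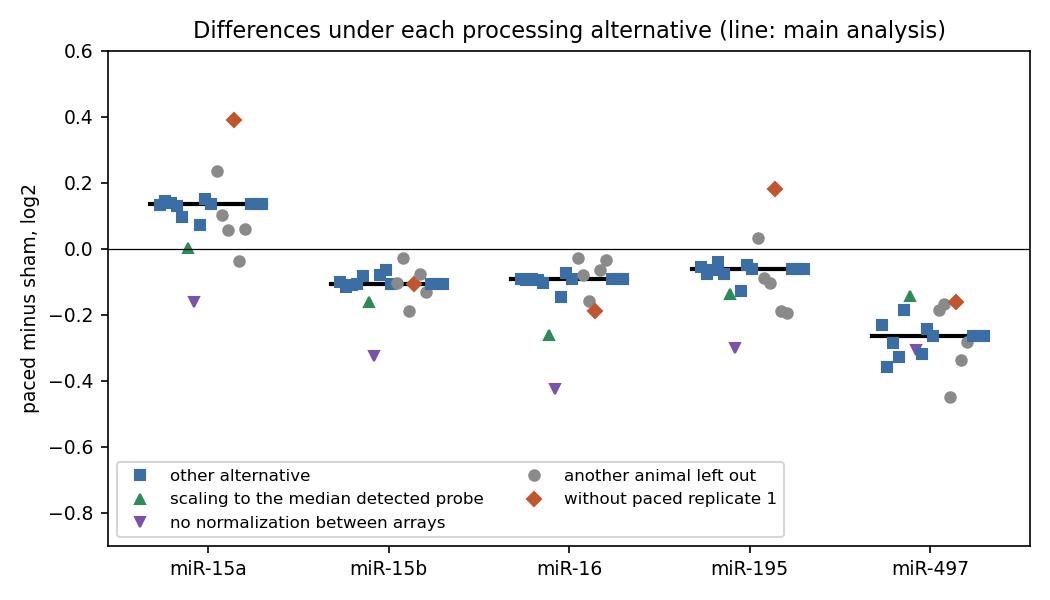
Paced minus sham difference in log2 intensity of the 5 members under each of 19 alternatives, with a line for the main analysis. Leaving out paced replicate 1 moves miR-15a to 0.39 and miR-195 to 0.18, and leaving out the normalization between arrays gives the lowest value of miR-15a (-0.16), miR-15b (-0.33), miR-16 (-0.43) and miR-195 (-0.30).

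The tissue was checked by marker miRNAs of its cell types. The background limit was passed on all arrays by 5 of 7 heart muscle probes (miR-499-3p passed on none), 5 of 5 fibroblast probes and 2 of 4 smooth muscle probes. For endothelium miR-126-3p passed on all arrays and miR-126-5p on none. Of the 8 leukocyte probes 2 passed on all arrays and 4 on none, and the summed level of the list was 1986 to 2127 in sham and 1796 to 2576 in paced animals. Of 5 probes for liver, brain and gut that an atrium should lack, 4 were well above background on no array and miR-192 on 2. Probes called miR-194 with a letter were not counted in this list. Among them miR-194a was well above background on 3 arrays, and miR-194b-3p and miR-194b-5p on none. The summed levels of the heart muscle list ranged from 60405 to 62926 in sham and from 58097 to 68905 in paced animals. Those of the fibroblast list ranged from 22785 to 24932 and from 21113 to 26154, and in both lists the groups overlapped. For heart muscle this says little. The brightest probes of that list, miR-133a-3p and miR-133b, differed by only 0.0041 and -0.0041 on the log2 scale. Quantile normalization leaves the brightest probes little room to differ between arrays. The smooth muscle list ranged from 19262 to 23007 in sham and from 17153 to 19084 in paced animals without overlap. Probe by probe, 1 of its 4 probes did not overlap (miR-143-3p). The share without overlap was 17.4% of all probes and 4.81% of the 104 that passed on all arrays. The part of smooth muscle in the members' values was not tested.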

How the data were processed

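LA RNA of 3 sham and 3 paced pigs was hybridized to 1-colour pig miRNA microarrays (LC Sciences), with 1 array for each animal. The scanner values that the authors deposited are linear intensities, the pixel median of each of 3968 spots, from which no background was subtracted. These files hold 2898 miRNA spots and 786 empty spots. The authors also deposited processed intensities, 1 per probe and array, whose background handling and normalization are not given in the sources used here.

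Scanner values were corrected with normexp (limma 3.58.1, R 4.3.3, offset 50), quantile-normalized over the miRNA spots, transformed to log2 and averaged over 9 repeat spots. The paced-minus-sham difference was fitted by lmFit and eBayes over 322 probes, with Benjamini-Hochberg adjustment. The number of arrays limits the precision. The groups and replicate numbers are those of the labels. Pairs of cluster partners were compared with an exact permutation test over animals.

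The members, the lists of related and marker probes, and the tests were chosen with earlier results of these data known. Named probes are all members and related probes, the 2 brightest erythroid probes and, for each member well above background on all arrays, the 3 probes nearest in pattern. Other marker probes, and those called miR-194 with a letter, are named by detection or to show what a summed level rests on.

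Alternatives were other background corrections (none, plain subtraction with a floor of 32, offset 10, and the 15 nearest empty spots), other normalizations (cyclic loess, scaling to the median detected probe, none), the processed values as log2(value + 32), the median of repeat spots, the replicate block, each animal left out, a filter on dim probes, another prior and the methods' t-test. For detection, limits of 2 SD and 5 SD were tried, and for repeat spots the MAD. The fit was tested on 20 simulated data sets, each with 30 of 322 probes changed by 1 on the log2 scale. Their median estimate was 0.88, and 2.33% of the unchanged probes passed after adjustment. The cause of either was not tested. Plots used matplotlib 3.10.9 under Python 3.11.15.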

Additional observations from a re-analysis of the deposited data

How the results depend on the processing

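No member reached an adjusted p of 0.05 in limma or in the methods' t-test under any of the 20 alternatives run, and the lowest adjusted p was 0.109 (miR-15a without paced replicate 1). Detection of the members stayed between 29 and 30 of 30 combinations and the median SD of repeat spots was 0.11, or 0.10 as MAD. No ratio of partners could pass under the exact test. miR-15b, miR-16 and miR-497 kept their sign throughout, also on the processed values. miR-15a was at -0.16 without normalization and between -0.036 (without paced replicate 2) and 0.39 (without paced replicate 1) with 1 animal left out, and miR-195 between -0.19 and 0.18 with 1 animal left out, above 0 without sham replicate 1 (0.031) or paced replicate 1 (0.18). The ratio of miR-15b to miR-16 was 0.023 with cyclic loess, 0.10 with scaling to the median detected probe, 0.10 without normalization, 0.067 on the processed values, 0.0081 with the median of repeat spots and between -0.098 and 0.082 with 1 animal left out. Over all probes the count at an unadjusted p under 0.05, 34 in the report, was 181 with scaling, 15 without normalization, 19 without sham replicate 2, 21 without paced replicate 3 and 67 without paced replicate 1. The filter on dim probes left fewer probes to test, 5 of which had such a p. Without sham replicate 2 miR-15b was at -0.027, and without sham replicate 1 miR-16 was at -0.027. For these values the cause was not tested.

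Scaling to the median detected probe called 2 of 5 related probes and 171 of all 322 (53.1%). The 2 were dim, miR-424-3p (0.49, adjusted p = 0.0215) and miR-503 (0.66, adjusted p = 0.00274), while the median probe moved by 0.44. It gave -0.14 for miR-103 and -0.13 for miR-107. Without normalization miR-503 was at 0.50, miR-424-3p at 0.33, miR-103 at -0.31, miR-107 at -0.30 and miR-424-5p at -0.023. Other background settings turned miR-424-5p to -0.11 (plain subtraction), -0.0048 (offset 10) and -0.012 (nearest empty spots), and miR-503 to -0.062 (nearest empty spots). Cyclic loess gave -0.027 for miR-103 and -0.021 for miR-107, the processed values -0.040 and -0.037, and the median of repeat spots -0.015 for miR-103. The t-test on processed values gave -51.5 and -44.3 units for miR-103 and miR-107. With 1 animal left out miR-103 lay between -0.058 and 0.075, miR-107 between -0.040 and 0.072, miR-424-5p between -0.33 and 0.46 and miR-503 between -0.043 and 0.085.

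The replicate numbers are shared by both groups without a stated pairing. Same-numbered arrays had correlations of deviations of 0.17, -0.01 and 0.21 over 104 probes, and 4 of 6 arrays correlated best with their own number. With the replicate block, 33 probes in place of 34 had an unadjusted p under 0.05, the lowest adjusted p of a member was 0.555 and the differences of miR-15a and miR-497 were 0.14 and -0.26. Signal over background limits miR-497 among the members, and miR-424-5p, miR-424-3p and miR-503 among the related probes.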
